A study of Rattus norvegicus with 2 samples.

Results

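The voltage-gated sodium channel genes described here are Scn1a, Scn2a, Scn3a, Scn8a, Scn7a and Scn2b, 6 of the 4736 genes that the array's annotation names with a single symbol. Every probe set carrying one of these symbols was taken, whatever its signal, which gave 10 of the 8740 non-control probe sets. The study set synaptosomal RNA, from nerve endings isolated biochemically out of the hippocampus, against RNA of the whole hippocampus, to find mRNAs enriched at the synapse. Both samples came from Sprague Dawley rats at postnatal day 70 with no treatment named in the labels. Each was hybridised to 1 array after an amplification primed with oligo(dT), and the number of animals behind each is not stated in the labels. With 1 array per group no test between the groups was possible, and every value below is a single measurement without a replicate check.

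Voltage-gated sodium channels open when the membrane depolarises and carry the inward current of the rising action potential. The large α subunit forms the pore and the voltage sensors, and smaller β subunits attach to it and influence its gating and its place in the membrane. In the adult forebrain the α subunits of Scn2a (Nav1.2) and Scn8a (Nav1.6) serve mainly excitatory neurons, where the second dominates at mature axon initial segments and nodes. That of Scn1a (Nav1.1) is known above all from fast-spiking interneurons, and that of Scn3a (Nav1.3) is most abundant around birth in rodents. Scn7a encodes Nax, a relative that responds to the sodium concentration rather than to voltage and is known from glia of sodium-sensing brain regions. In the rat RefSeq table of assembly GRCr8, Scn3a and Scn2a are direct neighbours, and Scn1a and Scn7a lie on the same chromosome, on either side of the further sodium channel gene Scn9a. Scn2b lies elsewhere, beside Scn4b, another β subunit gene.

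The signals are linear intensities as the authors deposited them, on arrays whose trimmed means were about equal, 2504 for synaptosomes and 2505 for the hippocampus. Of the non-control signals, 25.2% in synaptosomes and 31.4% in the hippocampus did not exceed 0. Values under the median of all non-control values, 846, were set to this floor before log2 was taken. A log2 ratio is synaptosome minus hippocampus, moved up by 0.17 so that the median probe set past the filter lies at 0. The filter kept probe sets whose mean log2 level was at or above 10.07. As a noise measure, the 95th percentile of negative signals by size was taken, which came to 2913 in synaptosomes and 5280 in the hippocampus. The only error available was the scatter among a gene's own probe sets, whose log2 ratios had a standard deviation (SD) of 0.90 within 658 genes. It leaves out animals and preparations.

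Of the 10 sodium channel probe sets, 5 passed the filter, 1 for each α subunit gene, and 5 did not. Among the 5 that passed, 3 were higher in synaptosomes by 2-fold or more, 0 were lower by that much and 2 lay between. Among all 3569 probe sets with 1 gene symbol past the filter, 19.4% were higher and 14.5% lower by 2-fold or more. Without the centring these shares were 15.1% and 19.8%, and 2 of the 5 sodium channel probe sets were 2-fold higher. The median log2 ratio of the 5 was 1.02, against 0.00 over all 3569. This median is the value of Scn1a, a bound from a probe set that passed through its synaptosome signal alone and so had to differ. The median of the other 4 was 0.71. So few probe sets cannot set the family apart from the rest of the array.

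**Figure D1:**
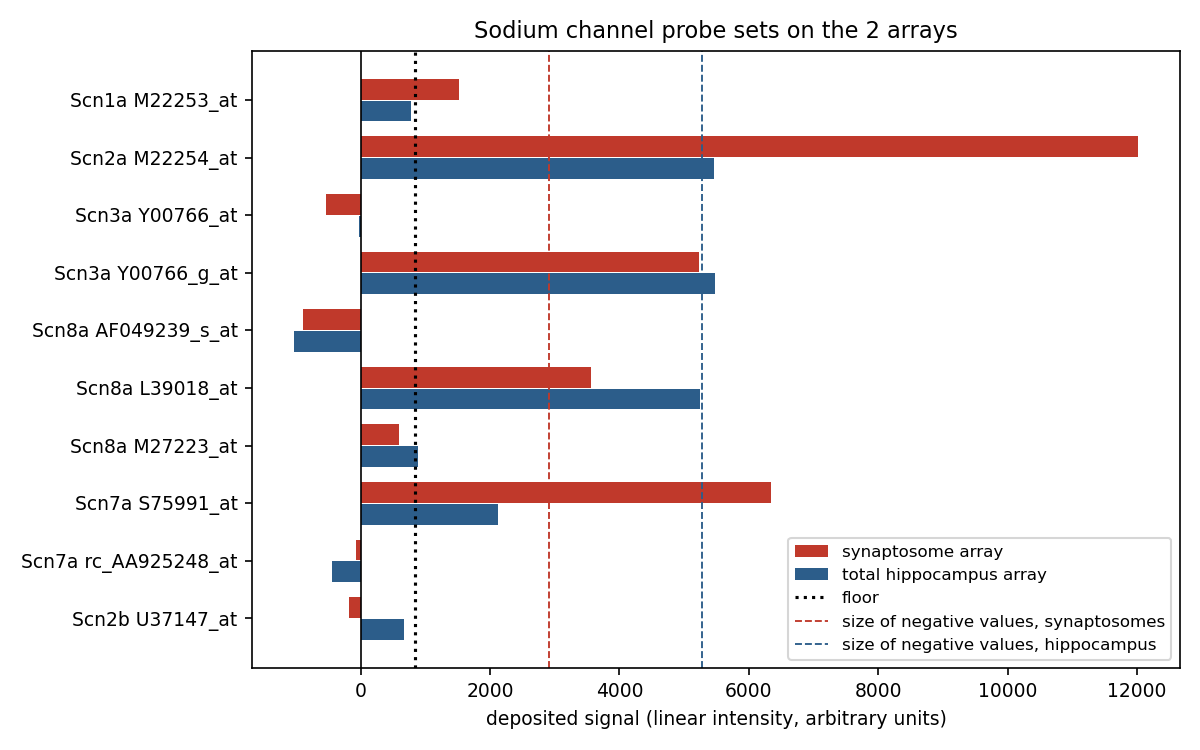
Deposited signals (linear intensity, horizontal axis) of the 10 sodium channel probe sets (rows) on the synaptosome array (red) and the total hippocampus array (blue), 1 array each. The dotted line is the floor of 846 and the dashed lines are the 95th percentiles of the size of negative values, 2913 and 5280. Scn2a reads 12007 in synaptosomes and 5456 in the hippocampus, and 5 of the 10 probe sets stay near or below the floor on both arrays.

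Scn2a, the gene of the α subunit found along unmyelinated axons, was higher in synaptosomes. Its single probe set (M22254_at) read 12007 in synaptosomes and 5456 in the hippocampus. Both readings lay above the noise measure of their array, narrowly in the hippocampus, which held for 2 of the 10 sodium channel probe sets. The log2 ratio was 1.31, or 2.48-fold with the centring and 2.20-fold as the plain quotient of the signals. This is larger than the SD of 0.90 among probe sets of the same gene. Scatter alone takes some ratios past 1 SD, and this SD leaves out animals and preparations. The log2 ratio stood at percentile 87.6 of the ratios of all probe sets past the filter. Among the 935 probe sets whose readings exceeded the noise measure on both arrays, 7.06% were higher and 11.1% lower by 2-fold or more. Their median log2 ratio was -0.13, and Scn2a stood at percentile 97.1 among them. The noise measure was higher in the hippocampus, so this cut favours probe sets that are brighter there. How much of the rise from percentile 87.6 to 97.1 comes from the uneven cut was not tested. On ranks within each array, which need no scaling, Scn2a moved to percentile 92.9 in synaptosomes, against 85.8 in the hippocampus.

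Scn1a, the gene of the α subunit known from interneurons, gave a weak signal that was higher in synaptosomes. Its probe set (M22253_at) read 1523 in synaptosomes, against 786 in the hippocampus, which is under the floor. With both signals at face value the centred ratio was at least 2.03-fold, or 1.02 on the log2 scale, and 0.85 without the centring. Neither reading reached the noise measure of its array, so the bound is not a guaranteed minimum. The call of 2-fold ended without the centring, after quantile normalization (0.94) and without the filter (0.98).

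Scn3a, whose channel is mainly perinatal, gave about equal signals in both samples with the probe set that could be measured. This set (Y00766_g_at) read 5229 in synaptosomes and 5473 in the hippocampus, both above the noise measure of their array, narrowly in the hippocampus. The log2 ratio was 0.10 with the centring and -0.07 without it, so its sign rests on the scaling. The companion set on the same source sequence (Y00766_at) read -532 in synaptosomes and -28 in the hippocampus, and has no ratio. The same Scn3a sequence thus gave a signal above the floor with 1 set of probes and none with the other. Over the 297 such pairs of designs in which both passed the filter, the log2 ratios within a pair had an SD of 0.78.

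Scn8a, the α subunit of mature initial segments and nodes, had 3 probe sets, and 1 of them carried signal. That set (L39018_at) read 3555 in synaptosomes and 5243 in the hippocampus, the second just under the noise measure. The log2 ratio of -0.39, or 1.31-fold lower, was smaller than that SD of 0.90. Its sign was negative under all 8 alternative settings, from -0.56 to -0.43. A second set (M27223_at) read 592 in synaptosomes and 883 in the hippocampus, and the third (AF049239_s_at) read -888 in synaptosomes and -1020 in the hippocampus. Both are too dim to show a direction.

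Scn7a, the sodium sensor of glia, had the highest of the 5 ratios. Its brighter probe set (S75991_at) read 6349 in synaptosomes and 2126 in the hippocampus. The log2 ratio was 1.75, or 3.36-fold with the centring and 2.99-fold as the quotient of signals, at percentile 93.8 of all probe sets past the filter. The synaptosome reading lay above the noise measure of its array and the hippocampus reading below it, so the size of the ratio is uncertain. With a floor at the 75th percentile of all values, 2798.5, the hippocampus reading fell under the floor. The log2 ratio of 1.27 in that setting is a bound. The set passed there through its synaptosome signal alone and so had to differ. The other probe set, on an expressed sequence tag (rc_AA925248_at), read -77 in synaptosomes and -445 in the hippocampus and shows neither presence nor a difference.

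Because Nax is known from glia, the astrocyte markers are given beside it. Their 16 probe sets past the filter, of 7 genes, had a median log2 ratio of 0.05. By 2-fold or more, 2 were higher and 1 lower, beside 19.4% and 14.5% of all probe sets past the filter. All sets of Slc1a3, Glul and Aldoc lay within 2-fold, with log2 ratios from -0.49 to 0.70. Slc1a2, the main astrocyte glutamate transporter, gave log2 ratios of 1.24, -0.77 and -1.51 by its 3 sets past the filter. Gja1, a gap junction protein, read 475 in synaptosomes and 1880 in the hippocampus. Its set passed the filter through the hippocampus signal alone, so it had to differ. The Slc1a2 sets with negative ratios and the Gja1 set lay under the noise measures on both arrays. The hippocampus reading of the Slc1a2 set at 1.24 also did, so these ratios are uncertain in size. Aqp4, the astrocyte water channel, read 17092 in synaptosomes and 16326 in the hippocampus. S100b, a calcium-binding protein of astrocytes, read 61538 in synaptosomes and 27401 in the hippocampus with 1 probe set, and -1015 and -2397 with the other. Summed over all 18 astrocyte probe sets with the floor applied and without the centring, the signal was 375118 in synaptosomes and 402937 in the hippocampus. The centring, a factor of 1.13, would take the synaptosome sum past that of the hippocampus. Bright sets of Aldoc, Glul and S100b make up most of both sums. The part of astrocyte RNA in the Scn7a ratio was not tested. In bulk RNA, fewer cells of a type and less RNA per cell cannot be told apart.

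Scn2b, the gene of the β2 subunit, which binds the α subunit through a disulfide bond, gave no signal above the floor. Its probe set (U37147_at) read -179 in synaptosomes and 672 in the hippocampus, both under the floor, so that no ratio can be given. Auxiliary and pore-forming subunits could therefore not be compared on these arrays.

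**Figure D2:**
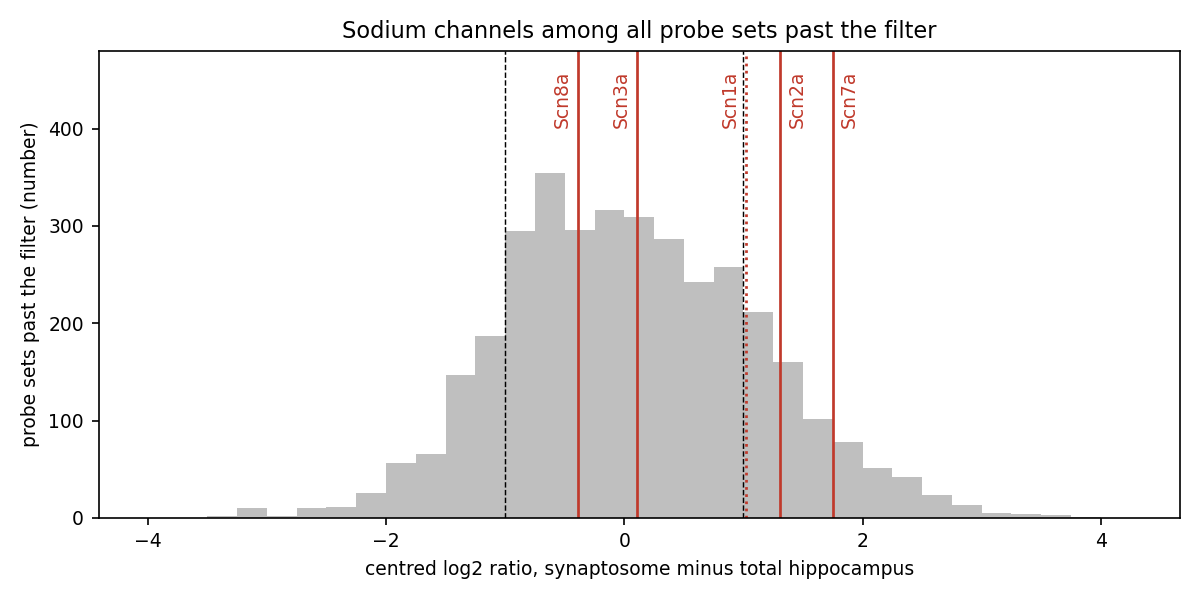
Centred log2 ratio (horizontal axis) of the 3569 probe sets with 1 gene symbol past the filter (grey histogram, number of probe sets), with the 5 sodium channel probe sets as red lines, dotted where the ratio is a bound. Dashed lines mark 2-fold. Scn8a (-0.39) and Scn3a (0.10) lie in the body of the distribution, and Scn1a (1.02), Scn2a (1.31) and Scn7a (1.75) in its upper shoulder.

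The 4 ratios measured above the floor on both arrays can be set against each other, since a difference between 2 ratios does not depend on the centring. The SD expected of such a difference from probe sets of one gene is 1.28. Of the 6 pairs, 3 lay farther apart than this SD: Scn7a exceeded Scn8a by 2.14 and Scn3a by 1.64 on the log2 scale, and Scn2a exceeded Scn8a by 1.70. The other 3 lay within it, with Scn2a above Scn3a by 1.20, Scn3a above Scn8a by 0.49 and Scn7a above Scn2a by 0.44. Scn1a, as a bound, has no fixed place in this order, and its bound lay 1.41 above Scn8a. The hippocampus readings of Scn7a and Scn8a, 2126 and 5243, were under the noise measure of 5280, so the distances that involve them are uncertain in size. No distance has a replicate. Scatter alone takes some differences past 1 SD, and the 6 pairs share 4 probe sets, so the count of 3 sets no gene apart. The SD among probe sets of one gene, 0.90, was also close to that over all probe sets with 1 gene symbol past the filter, 1.06.

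**Figure D3:**
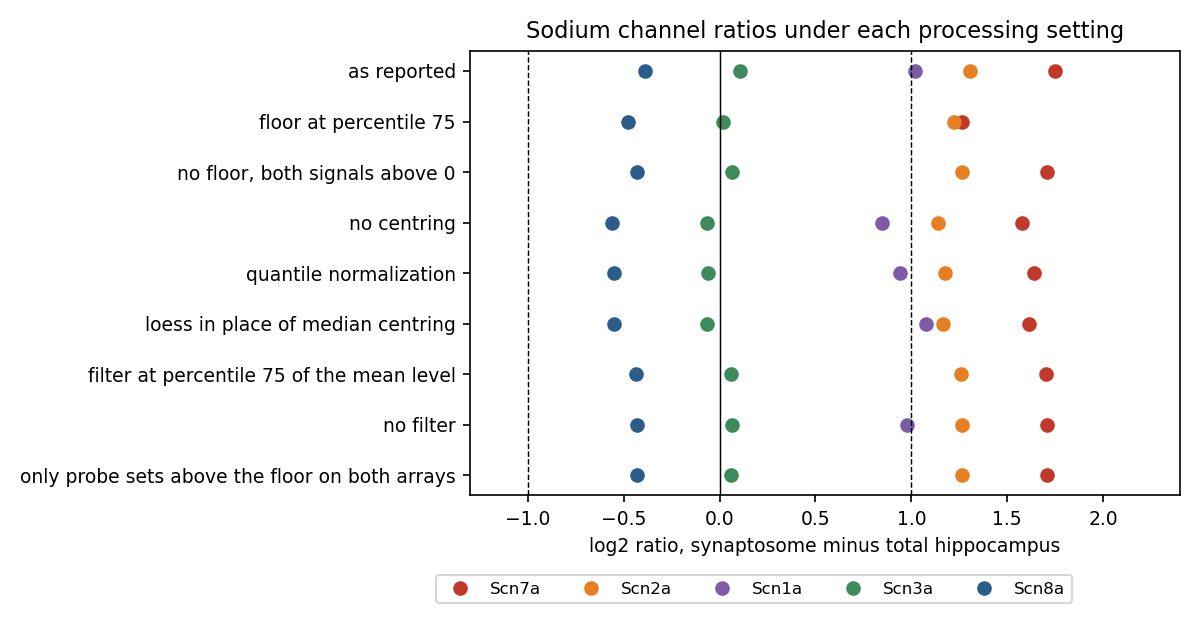
Log2 ratio (horizontal axis) of each sodium channel probe set past the filter (colours) as reported and under each alternative setting (rows); a missing point did not pass the filter there. Dashed lines mark 2-fold. Scn2a runs from 1.14 to 1.31 and Scn7a from 1.27 to 1.75, Scn3a straddles 0, and Scn1a falls on either side of the 2-fold line. The 1.27 of Scn7a, with the floor at percentile 75, is a bound.

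Among the other sodium channel subunits, Scn4a, Scn9a, Scn10a and Scn11a were represented by 7 probe sets, of which 1 passed the filter. It belongs to Scn9a (U79568_s_at), the gene of a channel best known from sensory neurons, and read 9434 in synaptosomes and 16249 in the hippocampus. Its log2 ratio was -0.61, in the same direction as Scn8a, within 2-fold and smaller than the SD between probe sets. The other Scn9a set (AF000368_at) read 674 in synaptosomes and 1127 in the hippocampus. None of the probe sets of Scn4a, a skeletal muscle channel, or of Scn10a and Scn11a, both channels of sensory neurons, reached the floor on either array.

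Proteins that hold sodium channels in place at the axon initial segment and node, or bind them in the membrane, had a positive median. Of 20 probe sets for 11 of these genes, 12 passed the filter, with a median log2 ratio of 0.69. By 2-fold or more, 5 were higher and 0 lower, beside 19.4% and 14.5% of all probe sets past the filter, and without the centring 4 were higher. L1cam, an axonal adhesion molecule that binds ankyrin, read 5168 in synaptosomes and 1267 in the hippocampus, 4.59-fold higher. Nrcam, an adhesion molecule of nodes, read 10994 in synaptosomes and 3535 in the hippocampus, 3.50-fold higher. Sptan1, the α chain of brain spectrin, read 8823 in synaptosomes and 3938 in the hippocampus, 2.52-fold higher.

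Ank3, or ankyrin-G, the scaffold that anchors Nav channels at the initial segment, lay within 2-fold with all 3 of its probe sets past the filter. Its brightest set (AF069525_at) read 9627 in synaptosomes and 6736 in the hippocampus, a log2 ratio of 0.69, and the others had 0.50 and 0.17. Nfasc, neurofascin, which clusters channels at initial segments and nodes, was at least 2.02-fold higher by 1 set (U81035_s_at), and the log2 ratio of another (L11002_at) was 0.69. The first of these passed the filter through its synaptosome signal of 1517 alone, with 391 in the hippocampus, so it had to differ. Both readings lay under the noise measures, and its log2 ratio without the centring was 0.84. Tnc, the matrix protein tenascin-C, was 3.20-fold higher with 1 set (U09361_s_at), while another (U15550_at) read 638 in synaptosomes and 1083 in the hippocampus. Tnr, tenascin-R, a matrix ligand of β subunits, lay farthest the other way at -0.71. The hippocampus readings of L1cam, Nrcam, Sptan1 and Tnc were under the noise measure of 5280, so the sizes of these ratios are uncertain.

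Enzymes and binding proteins that modify the channels gave both directions. Of 20 probe sets past the filter, for 12 genes, 5 were higher and 2 lower by 2-fold or more. Among all probe sets past the filter these shares were 19.4% and 14.5%. The other 13 lay between, and the median was 0.51. The 5 higher sets came from 2 genes, Prkcb and Ptprz1. Without the centring 4 were higher. Prkcb, a protein kinase C isoform, was at least 2-fold higher with all 3 of its probe sets, at log2 ratios of 1.01, 1.17 and 1.85, of which the lowest was 0.84 without the centring. Its brightest set (X04139_s_at) read 28442 in synaptosomes and 8889 in the hippocampus, both above the noise measures. Ptprz1, a receptor tyrosine phosphatase that binds sodium channels, was 2.27-fold higher with 1 set and at least 3.72-fold higher with the other. Its hippocampus readings, 1754 and 723, and the synaptosome reading of the second set, 2795, lay under the noise measures, so that neither size is certain and the bound is no guaranteed minimum. The second set passed the filter through its synaptosome signal alone, so it had to differ. Calm2, calmodulin, which binds the channel's C-terminus, read 54209 in synaptosomes and 149895 in the hippocampus, 2.46-fold lower. Csnk2b, the regulatory subunit of casein kinase 2, an enzyme that phosphorylates the ankyrin-binding site of Nav channels, read 1007 in synaptosomes and 3666 in the hippocampus, 3.24-fold lower. Both Csnk2b readings lay under the noise measures, so the size of this ratio is uncertain. Fgf14, a growth factor homologue that binds the channel's C-terminus, read -692 in synaptosomes and 539 in the hippocampus, both under the floor.

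**Figure D4:**
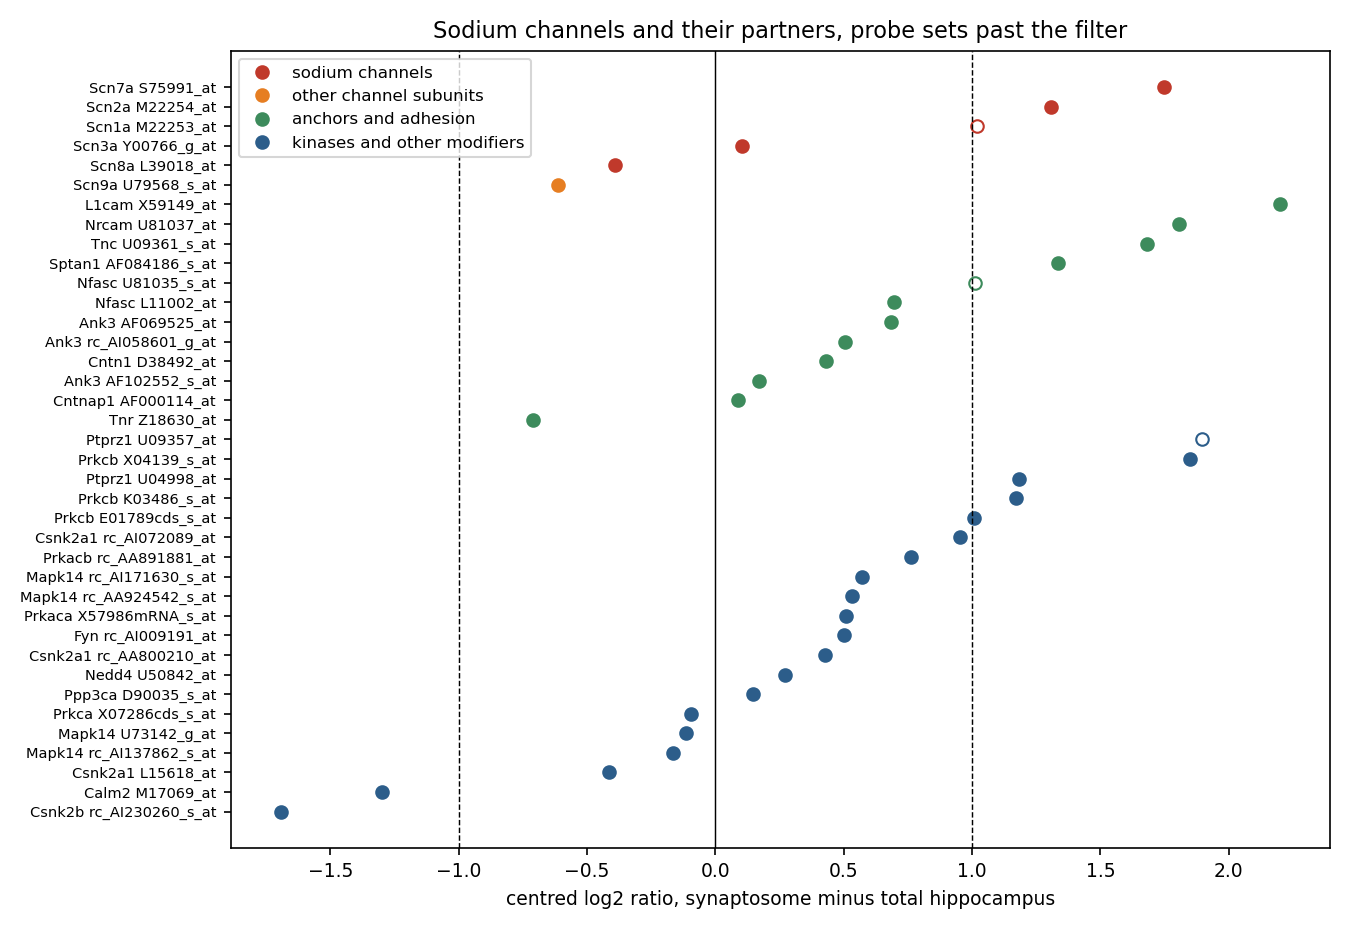
Centred log2 ratio (horizontal axis) of each probe set past the filter (rows) for the sodium channels and 3 groups of partners (colours); open circles are bounds and dashed lines mark 2-fold. Of the 12 sets of anchors and adhesion molecules 5 lie at or above 1 and 0 at or below -1, and of the 20 sets of modifiers 5 and 2. Among all probe sets past the filter these shares were 19.4% and 14.5%.

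Over the whole partner list, 10 of 33 probe sets past the filter were higher and 2 lower by 2-fold or more, with a median log2 ratio of 0.51, beside 19.4% and 14.5% of all probe sets. Of the 10, 2 are bounds that had to differ, 1 of Nfasc and 1 of Ptprz1. The higher count was 4 of 16 with suffixed probe sets left out, 4 of 24 with the higher floor and 4 of 20 with the stricter filter, where 19.4%, 9.93% and 14.1% of all probe sets were higher by 2-fold or more.

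Markers of cell types are given beside all probe sets past the filter, of which 19.4% were higher and 14.5% lower by 2-fold or more. Of 17 probe sets for 8 neuronal genes, all past the filter, 0 were higher by 2-fold or more and 3, all of the synaptic fusion protein gene Snap25, lower by that much, with a median of 0.33. Of 11 oligodendrocyte probe sets past the filter, 6 were lower and 1 higher by 2-fold or more, with a median of -1.32. The lower sets were of Mobp, Mog and Mbp. Among them, 1 Mog set (L21995_s_at), at 691 in synaptosomes and 8470 in the hippocampus, passed through its hippocampus signal alone and had to differ. Cnp was higher, with a log2 ratio of 1.42, while Mag (0.93 and -0.08) and Mal (-0.19) lay within 2-fold. Summed over all 12 with the floor applied and without the centring, the oligodendrocyte signal was 41170 in synaptosomes and 90868 in the hippocampus. Of 5 vascular probe sets past the filter, 3 were at least 2-fold lower. Of 15 microglial probe sets for 7 genes, 3 passed the filter, of which 1 was higher and 0 lower by 2-fold or more, with a median of 0.98. That set, of the microglial protein gene Aif1 (U10894_s_at), read 7546 in synaptosomes and 1267 in the hippocampus, 6.70-fold higher. Its hippocampus reading lay under the noise measure, so the size is uncertain. Another set of Aif1 (U17919_s_at) had a log2 ratio of 0.98. The remaining set past the filter, of Ptprc (M25823_s_at), went the other way. It read 400 in synaptosomes and 1521 in the hippocampus, both under the noise measures. This set passed the filter through its hippocampus signal alone, so it had to differ. Summed over all 15 with the floor applied and without the centring, the microglial signal was 28753 in synaptosomes and 18923 in the hippocampus, a difference that rests on Aif1. The probe sets of Csf1r and Itgam, both defining genes of microglia, were under the floor on both arrays. The part of these shifts in the sodium channel ratios was not tested.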

How the data were processed

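RNA of hippocampal synaptosomes and of the total hippocampus was measured on 1 array each. The authors deposited linear intensity values, 1 per probe set, for 8799 probe sets, 59 of them controls. Which software, background correction and scaling gave them is not given in the sources used here. No further scaling was applied. Gene names came from the platform annotation, in which 7006 non-control probe sets have 1 gene symbol, 308 have several and 1426 are unnamed here. Of the 7006, the gene identifier of 6985 was found in the RefSeq table of assembly GRCr8. From the deposited intensity values a floor at percentile 50, log2 ratios, centring on the median of the 4370 probe sets past the filter, and counts past 2-fold were computed. No test was possible. Levels of different probe sets were not compared, and a planned search for genes with levels like those of Scn2a was dropped for this reason. All probe sets of the sodium channel genes are named, and of the partner list every gene past 2-fold, with the gene lying farthest in the opposite direction. A few further partner and marker genes were named after their values were seen. The members, lists and settings were chosen with earlier results of these data known. Alternatives covered the floor, filter, centring and normalization. No probe, transcript or protein sequences were used here. The calculation was tested on simulated data without scatter between the arrays, which checks the arithmetic alone. It cannot show how often scatter gives a 2-fold call. Python 3.11.15, NumPy 2.4.6, pandas 2.3.3, statsmodels 0.14.6 and matplotlib 3.10.9 were used. Precision is limited by having 1 array per group.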

Additional observations from a re-analysis of the deposited data

How the results depend on the processing

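Scn2a and Scn7a were at least 2-fold higher in synaptosomes under all 8 alternative settings for the floor, filter, centring and normalization. With the floor at percentile 75, the Scn7a value is a bound that had to differ, since its hippocampus reading lay under that floor. The ranks of Scn2a and Scn7a within the array were higher in synaptosomes by 7.14 and 18.9 percentile points. The count of sodium channel probe sets at least 2-fold higher was 3 of 5 with loess correction and 3 of 4 without suffixed probe sets. In these settings 19.1% and 19.4% of all probe sets past the filter were higher by that much. It was 2 of 4 to 6 with the other 7 settings, because Scn1a either fell short of 2-fold or did not pass the filter. In those 7, from 9.93% to 17.7% of all probe sets were higher by 2-fold or more. The count of sodium channel probe sets at least 2-fold lower was 0 throughout, where 8.36% to 19.8% of all probe sets were lower. The Scn3a ratio was -0.07 without centring, -0.06 after quantile normalization and -0.06 with loess correction. The count of partner probe sets at least 2-fold higher was 4 with the floor at percentile 75, with the stricter filter, at percentile 75 of mean levels, and without suffixed probe sets, settings that leave 24, 20 and 16 of the 33 probe sets. The count at least 2-fold lower was 1 with these 3 settings, with quantile normalization and with loess correction. In these settings, in that order, 8.36%, 12.2%, 15.0%, 16.1% and 14.5% of all probe sets were lower by that much. No paired analysis was possible because each group holds 1 array. For the same reason no replicate could be left out. Signals under the floor, those of Scn2b included, show neither presence nor absence.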
